A study of Mus musculus with 4 samples.

Results

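Endothelial adhesion and activation genes are described here as 9 genes, Sele, Selp, Vcam1, Icam1, Ackr1, Lrg1, Csf3, Tnfsf8 and Inhbb, across the cell classes of mouse brain suspensions enriched for glia. The members were chosen by name, with earlier results of these data known. All 9 were found among the 32285 genes of the deposited count matrices. Male mice carrying human APOE4 (APOE44) or human APOE3 (APOE33) by targeted replacement of mouse Apoe received 5 mg/kg bacterial lipopolysaccharide (LPS) intraperitoneally 24 h before they were killed, or NaCl in its place. The 4 groups were APOE4 LPS, APOE4 NaCl, APOE3 LPS and APOE3 NaCl, all of them with mouse Apoe replaced by the human gene. Each group was 1 single-cell library pooled from 3 mice, and no cell can be traced to a mouse. No difference between groups therefore has a replicate check, no test was made, and every interval given is a 95% interval of counting error in unique molecular identifiers (UMIs) or cells.

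These genes mark the vessel wall that has been switched on by inflammatory signals. Selectins make passing leukocytes roll, the immunoglobulin-type molecules Vcam1 and Icam1 bind leukocyte integrins and hold the cells firmly, and Ackr1, an atypical receptor without G-protein signalling, takes up chemokines and presents them on venules. Activated endothelium also secretes proteins, among them Lrg1, a leucine-rich glycoprotein that modulates TGF-beta signalling, and Csf3, the growth factor that drives granulocyte production. Tnfsf8 is the ligand of CD30, and Inhbb encodes the beta B subunit of activins and inhibins. In the resting brain most of the endothelium is a tight capillary barrier with little of this programme.

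The 4 libraries held 14122 to 29361 barcodes and 73288965 to 114378032 UMIs. APOE4 LPS stood apart, with 29361 barcodes and a median of 1292 UMIs, against 3969 to 5640.5 in the other 3 libraries, and 61.9% of its barcodes passed the filters. Between 61 and 140 barcodes were shared by each pair of libraries. Of 53231 cells kept, the endothelial-like class, called endothelial cells below, held 1172 in APOE4 LPS, 606 in APOE4 NaCl, 798 in APOE3 LPS and 850 in APOE3 NaCl. Its cells carried medians of 1814.5, 2521, 4850 and 3180.5 UMIs, in that order. The class was named from 11 markers such as Cldn5, Flt1 and Pecam1, all of which were detected in it in every library, and the 9 members were left out of the genes used to cluster. It joins 3 clusters that the libraries filled unequally. The first held 333 APOE4 LPS, 5 APOE4 NaCl, 765 APOE3 LPS and 50 APOE3 NaCl cells. The second held 30, 591, 22 and 793 cells in the same order of libraries. The third, of low-UMI barcodes with a median of 1574 UMIs, held 809, 10, 11 and 7. Endothelial cells of the LPS and NaCl libraries thus came mostly from different clusters of the same class.

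Levels are given as CPM, the UMIs of a gene per 1000000 UMIs of its class in that library. The endothelial label held less cleanly in APOE4 LPS than elsewhere. The 11 endothelial markers summed to 14087 CPM in APOE4 LPS, against 25245 to 26712 CPM in the other libraries. The 8 microglial markers summed to 3019 CPM in APOE4 LPS, against 233 to 553 CPM elsewhere, and the 7 choroid plexus markers to 4747 CPM, against 601 to 977 CPM elsewhere. No marker of these lists was at 0 in any library. Their part in the results was not tested. Values without the low-UMI cluster, and without cells that held markers of another class, are given below.

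Every member was higher in the LPS library than in the NaCl library of the same genotype in endothelial cells. A gene was called higher where the CPM ratio reached 2 and either library of the pair held 10 UMIs or more of it. In APOE4, 8 of 9 members were called higher with LPS and none lower, where 20.1% of 13075 genes measured were called higher and 8.5% lower. In APOE3, 9 of 9 members were called higher with LPS and none lower, where 7.68% of 12681 genes were called higher and 8.86% lower. The member not called in APOE4 was Vcam1. Since the members were chosen with earlier results of these data known, these counts are descriptions and not a test of the list. The median log2 ratio over the members, with genes at 0 UMIs in NaCl set at a floor of 3 counts, was 3.09 in APOE4 and 5.81 in APOE3. On the log2(CPM + 1) scale the member medians were 2.84 and 4.53, beside -0.01 and -0.09 over all genes measured.

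The APOE4 ratios depended on the low-UMI cluster, which held 809 of the 1172 APOE4 LPS cells. Without it, a choice made after seeing the data, all 9 members were called higher in APOE4. Sele was then 104 CPM in APOE4 LPS and 12.3 CPM in APOE4 NaCl, a ratio of 8.45 (5.72 to 12.9), against 4.93 in the whole class. The ratio of Selp was 15.1 (8.21 to 31.0), that of Ackr1 20.6 (15.5 to 28.1), that of Lrg1 6.20 (4.87 to 7.97) and that of Icam1 5.33 (4.10 to 7.02), and Csf3 was at least 352-fold higher. Without cells that held markers of another class, the APOE4 ratio was 7.63 (4.15 to 15.1) for Sele, 16.9 (12.5 to 23.3) for Ackr1, 9.08 (6.55 to 12.9) for Lrg1 and 1.74 (1.46 to 2.08) for Vcam1. In APOE3, where the low-UMI cluster held 11 LPS and 7 NaCl cells, leaving it out gave 55.4 for Sele and 174 for Ackr1.

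**Figure D1:**
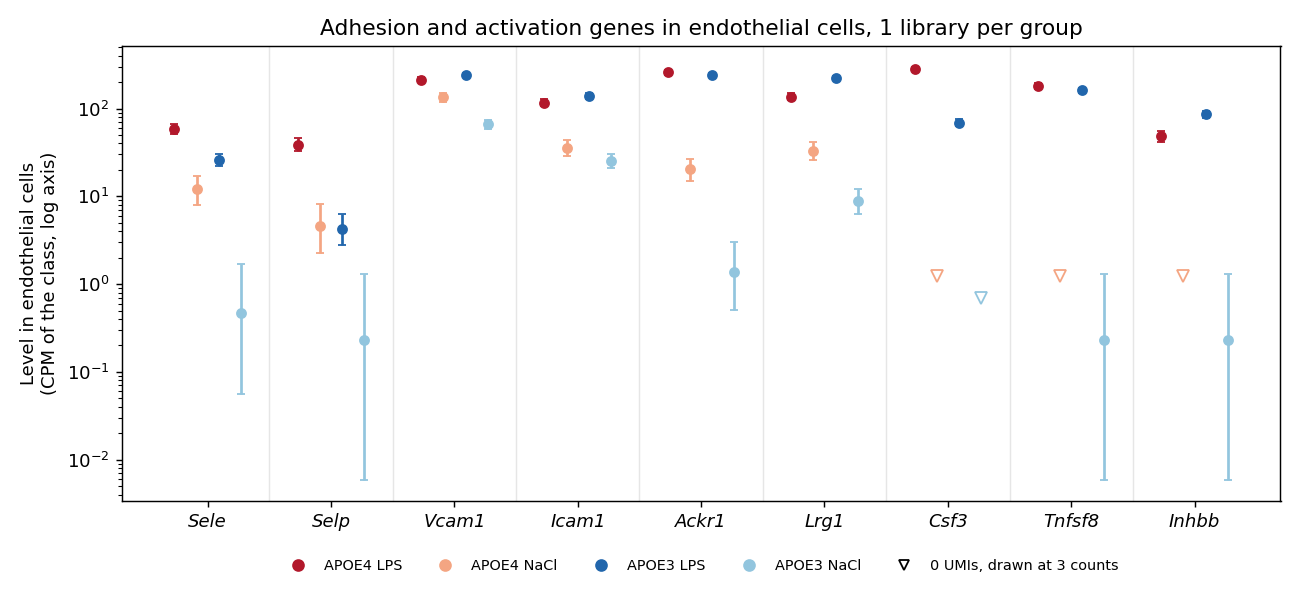
Level of each gene in endothelial cells (CPM of the class, log axis) in the 4 libraries, each a single point with its exact Poisson 95% interval. Open triangles mark 0 UMIs and are drawn at the floor of 3 counts. The LPS points lie above the NaCl points of the same genotype for all 9 genes, from 214 against 134 CPM for Vcam1 in APOE4 to 161 against 0.232 CPM for Tnfsf8 in APOE3.

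Sele and Selp encode E-selectin and P-selectin, the rolling receptors, and lie near each other on chromosome 1 (GRCm38, plus strand, at 164048234 to 164057677 and 164115264 to 164150026). Sele had 225 UMIs in APOE4 LPS, or 59.1 CPM, against 29 UMIs, or 11.99 CPM, in APOE4 NaCl. In APOE3 LPS it had 151 UMIs, or 25.9 CPM, against 2 UMIs, or 0.463 CPM, in APOE3 NaCl. The LPS over NaCl ratio of Sele was 4.93 (interval 3.34 to 7.52) in APOE4 and 55.9 (15.2 to 466) in APOE3. Few cells carried it even with LPS, 29 of 1172 in APOE4 LPS (2.47%) and 33 of 798 in APOE3 LPS (4.14%), against 2 of 606 (0.330%) in APOE4 NaCl and 1 of 850 (0.118%) in APOE3 NaCl. Selp was sparser, with 148 UMIs (38.8 CPM) in 20 cells of APOE4 LPS, against 11 UMIs (4.55 CPM) in 2 cells of APOE4 NaCl. In APOE3 LPS Selp had 25 UMIs (4.29 CPM) in 16 cells, against 1 UMI in APOE3 NaCl. Its LPS over NaCl ratios were 8.54 (4.64 to 17.5) in APOE4 and 18.5 (3.03 to 761) in APOE3, the last resting on that 1 UMI. A UMI of either selectin was found in 38 endothelial cells of APOE4 LPS and 2 of APOE4 NaCl, and in 40 of APOE3 LPS and 2 of APOE3 NaCl.

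The 250 bases before the RefSeq start (GRCm38.p6) are shown for the selectin genes and Icam1, the adhesion genes of this list with an entry in the promoter table, since all 3 were called higher with LPS in both genotypes. Capitals mark matches to the AP-1 motif TGANTCA or the STAT motif TTCNNNGAA, searched on both strands. Sele, at chr1:164047984-164048233 on the plus strand, holds a STAT match 140 bases and an AP-1 match 73 bases before the start. Selp, at chr1:164115014-164115263 on the plus strand, holds an AP-1 match 139 bases before it. Icam1, at chr9:21015690-21015939 on the plus strand, holds a STAT match 42 bases before it.
Sele: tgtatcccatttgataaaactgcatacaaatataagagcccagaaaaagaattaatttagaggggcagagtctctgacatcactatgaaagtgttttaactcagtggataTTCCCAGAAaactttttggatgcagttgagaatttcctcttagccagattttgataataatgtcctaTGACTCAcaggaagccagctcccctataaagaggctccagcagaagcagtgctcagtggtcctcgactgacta
Selp: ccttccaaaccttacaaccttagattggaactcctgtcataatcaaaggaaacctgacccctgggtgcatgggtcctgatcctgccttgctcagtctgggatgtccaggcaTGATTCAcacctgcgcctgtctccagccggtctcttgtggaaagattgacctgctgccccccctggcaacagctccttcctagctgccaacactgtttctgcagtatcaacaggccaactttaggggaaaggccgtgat
Icam1: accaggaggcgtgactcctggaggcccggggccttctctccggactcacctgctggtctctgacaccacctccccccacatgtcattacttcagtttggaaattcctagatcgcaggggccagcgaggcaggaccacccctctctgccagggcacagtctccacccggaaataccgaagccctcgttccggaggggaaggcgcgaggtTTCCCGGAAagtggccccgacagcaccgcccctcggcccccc
Of 32851 promoters of this length, 6.75% hold the AP-1 motif and 7.02% the STAT motif. Among the 7 members with an entry, 2 hold each motif. The NF-kB consensus motif of 10 letters is in 7.25% of promoters and in none of the 7, which says only that these letters are not in this window.

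Vcam1 and Icam1 encode the ligands of leukocyte integrins that arrest rolling cells, and unlike the selectins they were present without LPS. Vcam1 (chromosome 3, 116109949 to 116129688, minus strand) had 814 UMIs, or 214 CPM, in APOE4 LPS, against 323 UMIs, or 134 CPM, in APOE4 NaCl. APOE3 LPS held 1386 UMIs of it, or 238 CPM, against 285 UMIs, or 66.0 CPM, in APOE3 NaCl. The LPS over NaCl ratio of Vcam1 was 1.60 (1.40 to 1.83) in APOE4, short of the call, and 3.60 (3.17 to 4.11) in APOE3. Without the low-UMI cluster the APOE4 ratio was 2.35 (2.06 to 2.70), and without the barcode richest in Vcam1 in each library it was 1.32 (1.14 to 1.53). The call of Vcam1 in APOE4 thus turned on which endothelial barcodes were counted. Icam1 (chromosome 9, 21015985 to 21028817, plus strand) had 444 UMIs, or 117 CPM, in APOE4 LPS, against 86 UMIs, or 35.6 CPM, in APOE4 NaCl. In APOE3 LPS it had 811 UMIs, or 139 CPM, against 109 UMIs, or 25.2 CPM, in APOE3 NaCl. Its ratios were 3.28 (2.60 to 4.18) in APOE4 and 5.51 (4.51 to 6.80) in APOE3. Icam1 was widely spread among LPS cells, with a UMI in 174 cells (14.8%) of APOE4 LPS and 251 (31.5%) of APOE3 LPS, against 40 (6.60%) of APOE4 NaCl and 63 (7.41%) of APOE3 NaCl.

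Ackr1 and Lrg1 were low without LPS, above all in APOE3 NaCl. Ackr1 (chromosome 1, 173331886 to 173333750, minus strand) had 988 UMIs, or 259 CPM, in APOE4 LPS, against 49 UMIs, or 20.3 CPM, in APOE4 NaCl. In APOE3 LPS it had 1412 UMIs, or 242 CPM, against 6 UMIs, or 1.39 CPM, in APOE3 NaCl. The ratios were 12.8 (9.61 to 17.4) in APOE4 and 174 (79.9 to 476) in APOE3. The Ackr1 level in the 2 LPS libraries was close, and the gap between the ratios came from the NaCl libraries. Lrg1 (chromosome 17, 56119678 to 56122001, minus strand) had 521 UMIs, or 137 CPM, in APOE4 LPS, against 80 UMIs, or 33.1 CPM, in APOE4 NaCl. APOE3 LPS held 1310 UMIs of it, or 225 CPM, against 38 UMIs, or 8.80 CPM, in APOE3 NaCl. The ratios of Lrg1 were 4.13 (3.26 to 5.30) in APOE4 and 25.5 (18.5 to 36.3) in APOE3. A UMI of Lrg1 was found in 280 of 798 cells (35.1%) of APOE3 LPS, against 10 of 850 (1.18%) of APOE3 NaCl, the widest spread of the 9 members in that library.

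Csf3, Tnfsf8 and Inhbb, the secreted and membrane-bound ligands, were at or near 0 in the NaCl libraries. Csf3 (chromosome 11, 98701263 to 98703629, plus strand) had 1077 UMIs, or 283 CPM, in 167 cells of APOE4 LPS and 403 UMIs, or 69.2 CPM, in 80 cells of APOE3 LPS. It had 0 UMIs in both NaCl libraries, which, at 3 counts over the cells of the class, allows a share of cells with a UMI of up to 0.495% in APOE4 NaCl and 0.353% in APOE3 NaCl and sets no limit on cells that express it below detection. Against a floor of 3 counts per library, Csf3 was at least 228-fold higher with LPS in APOE4 and at least 99.5-fold higher in APOE3. Tnfsf8 (chromosome 4, 63831308 to 63861347, minus strand) had 684 UMIs, or 180 CPM, in APOE4 LPS, against 0 UMIs in APOE4 NaCl, and was at least 145-fold higher. In APOE3 LPS it had 940 UMIs, or 161 CPM, against 1 UMI in APOE3 NaCl, a ratio of 696 (125 to 27539). Inhbb (chromosome 1, 119415465 to 119422248, minus strand) had 185 UMIs, or 48.6 CPM, in APOE4 LPS, against 0 UMIs in APOE4 NaCl, and was at least 39.1-fold higher. APOE3 LPS held 503 UMIs of it, or 86.3 CPM, against 1 UMI in APOE3 NaCl, a ratio of 373 (66.6 to 14750). The ratios over 1 UMI have intervals that span more than 100-fold, so their size is poorly fixed, while the near absence in NaCl is not.

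Free RNA in droplets can place a UMI in a cell that does not make it. Oligodendrocytes, which were taken as a class that should lack these genes, had a UMI of each member in 0% to 1.87% of 1444 cells in APOE4 LPS and 0.0743% to 2.19% of 2690 cells in APOE3 LPS, at medians of 5099.5 and 6030 UMIs per cell. With each cell thinned to 1000 UMIs, their shares were 0% to 0.346% and 0% to 0.446%. Thinned endothelial shares were 8.45% for Csf3, 5.20% for Ackr1 and 1.28% for Sele in APOE4 LPS. In APOE3 LPS the thinned shares were 4.01% for Csf3, 6.64% for Ackr1 and 0.877% for Sele. No cell was left out by the thinning, and these endothelial shares lay above the oligodendrocyte range in the same library. Thinned Selp in APOE3 LPS, 2 of 798 cells or 0.251%, lay within that range and could not be told from background by this measure. Oligodendrocytes were deep, however, and shallow APOE4 LPS barcodes of other classes carried more Csf3. A UMI of Csf3 was found in 9.02% of a choroid plexus cluster, 5.71% of a neuron cluster, 7.87% of an unnamed cluster and 2.31% of erythroid cells, all with medians of 1401 to 1837 UMIs, against 10.0% of the low-UMI endothelial cluster at 1556 UMIs. Their Csf3 levels were 35.6, 37.0, 46.3 and 24.3 CPM, against 92.6 CPM in the low-UMI endothelial cluster and 465 CPM in the mainly LPS endothelial cluster of the same library. The share was lower in an ependymal cluster (3.45%), another unnamed cluster (1.81%) and monocytes (0.664%) of that library, at medians of 1444, 1399.5 and 1840 UMIs. The Csf3 share in the low-UMI endothelial cluster was thus near that of the choroid plexus cluster and above the rest of those listed. Its level was higher than in any of them.

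Between genotypes without LPS, members were higher in APOE4 NaCl than in APOE3 NaCl, and for the selectins, Ackr1 and Lrg1 most UMIs of APOE4 NaCl sat in a handful of cells. Of the 6 members with at least 10 UMIs in either library, 5 were called higher and none lower, where 2.12% of 12030 genes were called higher and 2.9% lower. The ratios were 25.9 (6.55 to 224) for Sele, 19.6 (2.85 to 845) for Selp, 14.6 (6.24 to 41.6) for Ackr1, 3.76 (2.52 to 5.68) for Lrg1 and 2.02 (1.72 to 2.38) for Vcam1. Icam1, at 1.41 (1.05 to 1.89), was not called. All 29 Sele and all 11 Selp UMIs of APOE4 NaCl came from the 5 of its 606 endothelial cells that fell in the mainly LPS cluster. The same 5 cells held 45 of its 49 Ackr1, 66 of its 80 Lrg1 and 82 of its 323 Vcam1 UMIs, and none of Csf3, Tnfsf8 or Inhbb. They were deep, with a median of 11141 UMIs, and none of their barcodes appeared in another library. The 50 APOE3 NaCl cells of that cluster, at a median of 5427.5 UMIs, held 2 Sele, 1 Selp, 5 Ackr1, 16 Lrg1 and 91 Vcam1 UMIs. Outside it, in the mainly NaCl cluster, the counts were 4 against 1 for Ackr1 and 14 against 17 for Lrg1 in 591 APOE4 NaCl and 793 APOE3 NaCl cells, and neither selectin was seen. Vcam1 there was 104 CPM in APOE4 NaCl and 48.2 CPM in APOE3 NaCl, so that its difference did not rest on the 5 cells. The count of 5 members was 1 with every cell thinned to 1000 UMIs, and 2 with a minimum of 50 UMIs per gene.

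Between genotypes with LPS, 3 of 9 members were called higher in APOE4 LPS than in APOE3 LPS and none lower, where 18% of 13384 genes were called higher and 2.72% lower. They were Selp, at a ratio of 9.05 (5.90 to 14.4), Csf3, at 4.09 (3.64 to 4.59), and Sele, at 2.28 (1.85 to 2.82). Of the remainder, Ackr1 stood at 1.07 (0.986 to 1.16), Tnfsf8 at 1.11 (1.01 to 1.23), Vcam1 at 0.898 (0.823 to 0.980) and Icam1 at 0.837 (0.744 to 0.941). Lrg1, at 0.608 (0.548 to 0.674), and Inhbb, at 0.562 (0.473 to 0.667), were lower in APOE4 LPS without reaching the call. The median log2 ratio of the 9 members was 0.10, beside 0.01 over all genes. The call of Sele rested on 1 barcode, which held 111 of the 225 Sele UMIs of APOE4 LPS. Without the richest barcode of each library the ratio of Sele was 1.41 (1.08 to 1.83), while those of Csf3 and Selp were 3.68 (3.26 to 4.17) and 8.50 (5.11 to 14.9).

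The choice of barcodes and scale moved these genotype ratios in opposite directions. Without the low-UMI cluster Csf3 was 6.44 (5.73 to 7.26), Tnfsf8 was 1.78 (1.60 to 1.97) and Vcam1 was 1.36 (1.23 to 1.49), so that Vcam1 then lay above 1. Without cells holding markers of another class, 292 APOE4 LPS and 513 APOE3 LPS cells remained, and Csf3 was 11.6 (9.66 to 14.03) and Ackr1 2.44 (2.16 to 2.77). Counted as UMIs per cell, with no scaling to the class, Csf3 was 1.82 (1.62 to 2.05), Sele was 1.01 (0.822 to 1.26), and Lrg1 was 0.271 (0.244 to 0.300). Selp alone was then called higher, at 4.03 (2.63 to 6.43), and Vcam1, Icam1, Ackr1, Lrg1, Tnfsf8 and Inhbb lay between 0.2504 and 0.495. Over the settings tried, Selp ranged from 2.22 to 20.4 and Csf3 from 1.82 to 11.6, above 1 throughout, and Inhbb from 0.2504 to 0.827, below 1 throughout. No setting was a cluster with endothelial and pericyte markers taken alone, described below, where Selp was lower in APOE4 LPS. That cluster held 5 Selp UMIs in APOE4 LPS and 48 in APOE3 LPS, a ratio of 0.282 (0.0875 to 0.704).

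**Figure D2:**
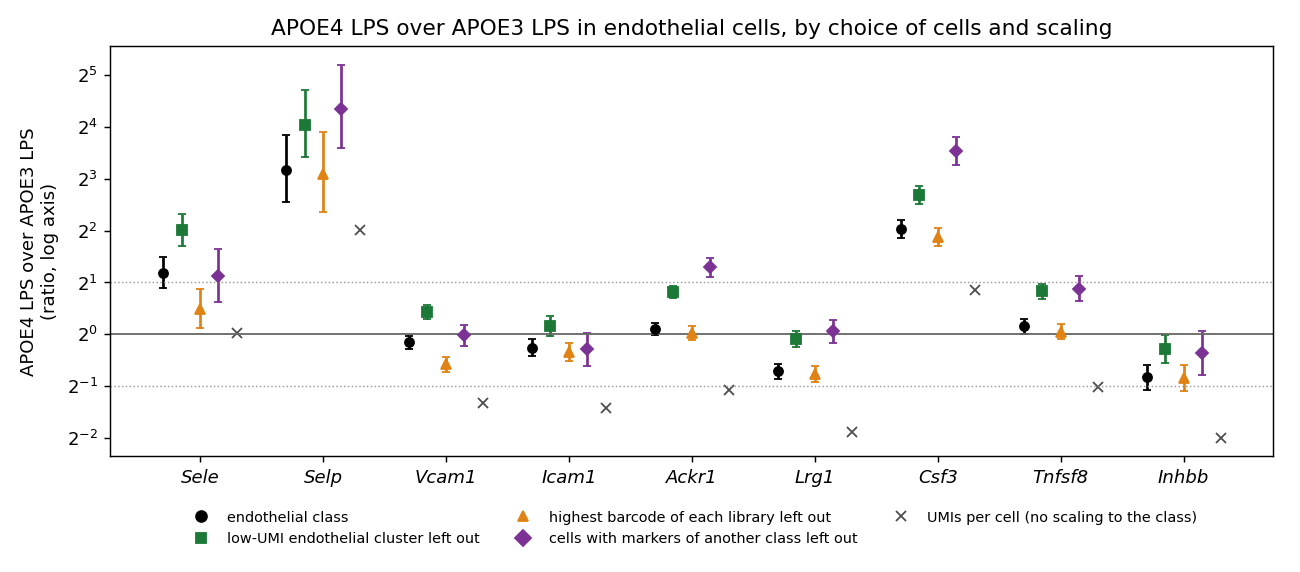
Ratio of APOE4 LPS over APOE3 LPS in endothelial cells (log axis) for each gene, with 95% counting intervals, for the whole endothelial class and for 3 other choices of cells. Crosses give the ratio of UMIs per cell, drawn without an interval. The dotted lines mark 2-fold higher and lower, and Csf3 (4.09) and Selp (9.05) lie above 1 under every choice drawn.

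The LPS over NaCl ratio was smaller in APOE4 than in APOE3 for all 6 members for which it could be set side by side, except that the Icam1 difference was 0.13 (-0.99 to 1.26) with each cell thinned to 1000 UMIs. The difference of the log2 ratios, APOE4 minus APOE3, was -3.77 (-5.00 to -2.54) for Ackr1, -3.51 (-5.59 to -1.42) for Sele, -2.63 (-3.20 to -2.05) for Lrg1, -1.17 (-1.43 to -0.91) for Vcam1 and -0.75 (-1.19 to -0.31) for Icam1. That of Selp was -1.12 (-4.13 to 1.90), an interval that includes 0. The NaCl values behind the differences of Sele, Selp, Ackr1, Lrg1 and, in part, Vcam1 rest on the 5 APOE4 NaCl cells described above. Csf3, Tnfsf8 and Inhbb had 0 UMIs in at least 1 NaCl library and gave no difference.

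Within the LPS libraries the members were held by few cells. Of the 225 Sele UMIs in APOE4 LPS, 80% lay in 8 cells, against 12 cells for the 151 UMIs of APOE3 LPS. A Selp UMI was found in 1.71% of endothelial cells of APOE4 LPS and 2.01% of those of APOE3 LPS. For Selp, 6 cells of APOE4 LPS held 80% of 148 UMIs, against 11 cells for 25 UMIs in APOE3 LPS. For Ackr1, 19 cells of APOE4 LPS held 80% of 988 UMIs, against 31 cells for 1412 UMIs in APOE3 LPS. Icam1 was more widely spread, with 86 cells in APOE4 LPS and 118 in APOE3 LPS holding the same share. The richest Sele barcode of APOE4 LPS, with 33339 UMIs in all, also held 246 Vcam1, 139 Ackr1, 50 Icam1, 15 Lrg1, 10 Csf3 and 7 Selp UMIs but no Inhbb. In APOE3 LPS the richest Sele barcode, with 19923 UMIs, held 27 Sele, 85 Vcam1 and 79 Ackr1 UMIs and no Inhbb, Csf3 or Selp. In these 2 barcodes Sele thus stood beside Vcam1 and Ackr1.

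Co-detection was counted over all endothelial cells of each LPS library. In APOE4 LPS, 16 of 29 cells with Sele (55.2%) also had Ackr1, against 72 of 1143 cells without Sele (6.30%). In APOE3 LPS the shares were 28 of 33 cells (84.8%) and 65 of 765 cells (8.50%). For Selp, 11 of the 29 Sele cells of APOE4 LPS (37.9%) had it, against 9 of 1143 without Sele, so that 9 of the 20 Selp cells had no Sele. Inhbb was found in 4 of 29 Sele cells (13.8%) of APOE4 LPS, against 7.44% of the others, and in 9 of 33 (27.3%) of APOE3 LPS, against 20.7% of the others. Tnfsf8 was found in 73 of 167 cells with Inhbb (43.7%) in APOE3 LPS, against 15.5% of those without, and in 27 of 89 (30.3%) in APOE4 LPS, against 10.8% of those without. Deeper cells detect more of every gene, so these shares describe the cells and are not corrected for depth.

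To place the members along the vessel, the endothelial cells were clustered again without them into 16 subclusters, and a zone was named from at least 3 of its markers. Subcluster comparisons are descriptions, since the same cells were used to form them. A venous-like subcluster of 88 cells, with Nr2f2 and Vwf among its markers, held 24 APOE4 LPS, 0 APOE4 NaCl, 62 APOE3 LPS and 2 APOE3 NaCl cells. It contained 71.6% of the Sele UMIs of APOE4 LPS and 74.2% of those of APOE3 LPS. Sele there was 1013 CPM (863 to 1182) in APOE4 LPS and 172 CPM (141 to 207) in APOE3 LPS. The richest Sele barcode of each LPS library lay in this subcluster, and the one of APOE4 LPS held 111 of its 161 Sele UMIs. Without these barcodes Sele was 398 CPM (296 to 525) in APOE4 LPS and 134 CPM (107 to 166) in APOE3 LPS, and Vcam1 was 1577 and 859 CPM in the same order. With them, Ackr1 in these cells was 2266 CPM in APOE4 LPS and 1365 CPM in APOE3 LPS, and Vcam1 was 2794 and 963 CPM in the same order. Lrg1 was found in 18 of the 24 APOE4 LPS cells and 54 of the 62 APOE3 LPS cells. Selp, Icam1 and Tnfsf8 were also present in these cells, while Inhbb was at 0 UMIs in APOE4 LPS and 10 UMIs in APOE3 LPS. Selp there was 138 CPM in APOE4 LPS and 24.5 CPM in APOE3 LPS. That was 14.9% of the Selp UMIs of APOE4 LPS and 64% of those of APOE3 LPS.

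Most UMIs of Csf3, Tnfsf8 and Inhbb lay in another subcluster, although by level only Inhbb was higher there than in the venous-like cells in both LPS libraries. This subcluster of 373 cells that matched no zone and was led by Stc1 and Adamts4 held 131 APOE4 LPS and 241 APOE3 LPS cells, against 0 APOE4 NaCl cells and 1 APOE3 NaCl cell. It contained 61.7% of the Csf3 UMIs of APOE4 LPS and 63.5% of those of APOE3 LPS. Csf3 in it was 855 CPM (791 to 922) in APOE4 LPS and 108 CPM (94.9 to 122) in APOE3 LPS, found in 42.7% and 20.3% of its cells. For Inhbb the subcluster held 68.6% of the UMIs of APOE4 LPS and 79.7% of those of APOE3 LPS, and its levels of 163 and 169 CPM were alike in the 2 libraries. It also held 70.0% of the Tnfsf8 UMIs of APOE4 LPS and 57.0% of those of APOE3 LPS, at 616 and 226 CPM. In the smaller venous-like subcluster Csf3 was 441 CPM in APOE4 LPS and 123 CPM in APOE3 LPS, and Tnfsf8 was 271 and 334 CPM in the same order, so that in APOE3 LPS Tnfsf8 was higher in the venous-like cells and the Csf3 intervals (97.3 to 153 and 94.9 to 122) overlapped. The lower Inhbb of the whole APOE4 LPS class was thus not seen within the subcluster led by Stc1 and Adamts4. In the venous-like cells Inhbb had 0 UMIs in APOE4 LPS and 10 UMIs in APOE3 LPS. A further LPS subcluster, led by Adm and Scgb3a1, had 117 APOE4 LPS and 368 APOE3 LPS cells. Csf3 in it was 31.6 CPM in APOE4 LPS and 23.1 CPM in APOE3 LPS, while Lrg1 was 108 and 140 CPM and Vcam1 108 and 117 CPM in the same order. Inhbb in it was lower in APOE4 LPS, at 18.4 CPM against 40.8 CPM in APOE3 LPS.

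An arterial-like subcluster of 146 cells, marked by Bmx, Gkn3, Efnb2, Sema3g and Vegfc, carried Vcam1 with and without LPS. Its Vcam1 level was 260 CPM in APOE4 LPS and 440 CPM in APOE4 NaCl, and 337 CPM in APOE3 LPS and 595 CPM in APOE3 NaCl. In this subcluster the LPS values were thus below the NaCl values, the opposite of the whole class. The intervals overlapped in APOE4 (193 to 341 and 317 to 594) and were separate in APOE3 (298 to 379 and 476 to 733). The subcluster held 0 Sele UMIs in both LPS libraries, and its 48 Selp and 62 Csf3 UMIs in APOE4 LPS each lay in 1 of 23 cells. Other arterial-like subclusters, mainly of NaCl cells, had Vcam1 at 78.6 and 37.1 CPM in APOE4 NaCl and 14.7 and 18.5 CPM in APOE3 NaCl. Cells separately assigned to an arterial zone had 902 CPM (752 to 1073) in APOE3 LPS and 529 CPM (430 to 644) in APOE3 NaCl. In APOE4 such cells had 232 CPM (116 to 415) with LPS and 435 CPM (335 to 556) with NaCl. The direction in APOE3 thus depended on the grouping. The NaCl cells with adhesion genes fell in another subcluster, of 98 APOE4 NaCl and 106 APOE3 NaCl cells, named capillary-like but also holding the venous marker Slc38a5. It contained all 29 Sele, all 11 Selp, all 80 Lrg1 and 48 of 49 Ackr1 UMIs of APOE4 NaCl, and both Sele, 27 of 38 Lrg1 and 5 of 6 Ackr1 UMIs of APOE3 NaCl. Vcam1 in it was 355 CPM (310 to 404) in APOE4 NaCl and 153 CPM (128 to 182) in APOE3 NaCl. Other capillary-like subclusters came mainly from the NaCl libraries, and in 1 of them, with 108 APOE4 NaCl and 160 APOE3 NaCl cells, Vcam1 was at 9.88 and 2.94 CPM and Ackr1, Lrg1, Csf3, Tnfsf8 and Inhbb at 0.

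**Figure D3:**
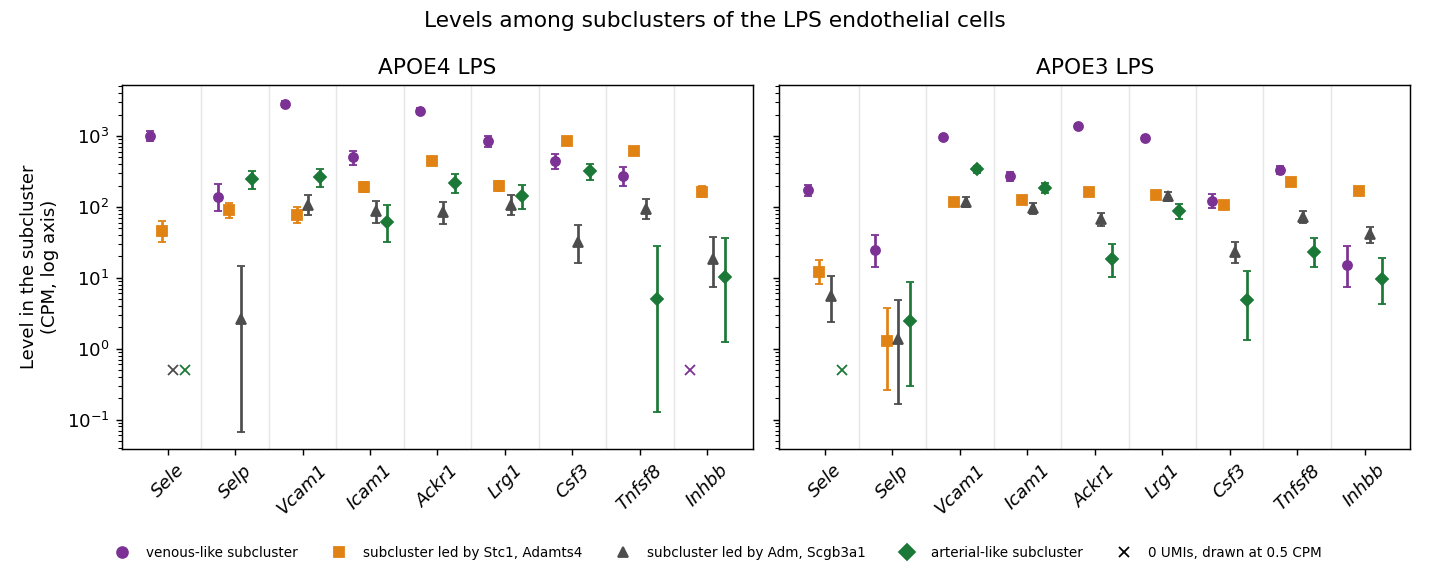
Level of each gene (CPM, log axis, with exact Poisson 95% intervals) in 4 subclusters of endothelial cells, in APOE4 LPS on the left and APOE3 LPS on the right. Crosses mark 0 UMIs and are drawn at 0.5 CPM. Sele, Vcam1, Ackr1 and Lrg1 stand highest in the venous-like subcluster in both libraries (Ackr1 2266 and 1365 CPM), and Inhbb in the subcluster led by Stc1 and Adamts4 (163 and 169 CPM).

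Few UMIs of these genes were found in mural cells, which held few UMIs in all. Pericytes, of which there were 70 in APOE4 LPS, 116 in APOE4 NaCl, 141 in APOE3 LPS and 122 in APOE3 NaCl, had 0 UMIs of Sele, Selp and Ackr1 in all 4 libraries. They had 8, 6, 5 and 7 UMIs of Vcam1 in the same order, and at most 3 UMIs of any other member. Smooth muscle cells, 10 to 43 per library, had at most 2 UMIs of any member. A separate unnamed cluster of 597 deep barcodes, with a median of 9377 UMIs, held 11 endothelial markers and was led by pericyte genes such as Abcc9 and Rgs5. It held 107 APOE4 LPS, 69 APOE4 NaCl, 242 APOE3 LPS and 179 APOE3 NaCl barcodes and showed the same members as the endothelial class. Csf3 in it was 465 CPM in APOE4 LPS and 31.6 CPM in APOE3 LPS, and 0 in both NaCl libraries. Sele in it had 21 UMIs in APOE4 LPS and 0 in APOE4 NaCl, and 82 in APOE3 LPS and 2 in APOE3 NaCl.

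Vcam1 was shared most widely among the other classes. Border macrophages, which line vessels and membranes, had 667 CPM in APOE4 LPS and 658 CPM in APOE4 NaCl, and 992 CPM in APOE3 LPS and 815 CPM in APOE3 NaCl. The ratios with LPS were 1.01 (0.882 to 1.17) in APOE4 and 1.22 (1.09 to 1.36) in APOE3. In choroid plexus epithelium Vcam1 was 222 CPM in APOE4 LPS and 165 CPM in APOE4 NaCl, and 212 CPM in APOE3 LPS and 165 CPM in APOE3 NaCl. Astrocytes ran the other way, with 107 CPM in APOE4 LPS and 156 CPM in APOE4 NaCl, and 115 CPM in APOE3 LPS and 163 CPM in APOE3 NaCl. Their LPS over NaCl ratios, 0.685 (0.635 to 0.740) and 0.706 (0.661 to 0.753), were below 1 in both genotypes and close to each other. Vcam1 with LPS was thus higher in endothelial cells and lower in astrocytes of the same libraries.

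Icam1 had its largest UMI totals in microglia, the resident macrophages of the brain. They had 216 CPM in APOE4 LPS and 133 CPM in APOE4 NaCl, a ratio of 1.62 (1.52 to 1.73), and 276 CPM in APOE3 LPS and 145 CPM in APOE3 NaCl, a ratio of 1.91 (1.82 to 2.002). A cluster of 1893 microglia led by the cytokine genes Il1b and Tnf listed Icam1 among its 10 leading genes, although Icam1 was not used to form it. Fibroblasts had 61.6 CPM of Icam1 in APOE4 LPS and 21.5 CPM in APOE4 NaCl, and 68.2 CPM in APOE3 LPS and 23.6 CPM in APOE3 NaCl. In choroid plexus epithelium Icam1 was 25.2 CPM in APOE4 LPS and 5.18 CPM in APOE4 NaCl, and 20.6 CPM in APOE3 LPS and 5.97 CPM in APOE3 NaCl. LPS over NaCl ratios above 1 were thus shared by Icam1 in endothelial cells, microglia, fibroblasts and choroid plexus.

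For the other members the classes differed. Outside the endothelium Ackr1 was found in neurons, at 38.4 CPM in APOE4 LPS and 54.1 CPM in APOE4 NaCl, and at 34.4 CPM in APOE3 LPS and 43.2 CPM in APOE3 NaCl. Lrg1 was found in neutrophils, circulating phagocytes that store it in granules, at 681 CPM in APOE4 LPS and 1277 CPM in APOE3 LPS. Microglia had 123 Lrg1 UMIs in APOE4 LPS and 2 in APOE4 NaCl, and 1120 in APOE3 LPS and 1 in APOE3 NaCl. Csf3 was found in border macrophages with LPS, 102 UMIs in APOE4 LPS and 33 in APOE3 LPS, and in neither NaCl library. In APOE4 LPS it was also found in choroid plexus, with 66 UMIs, and in neurons, with 74, against 1 and 0 UMIs in the same classes of APOE3 LPS. Of these, 58 lay in a low-UMI choroid plexus cluster and 72 in a low-UMI neuron cluster, at medians of 1837 and 1502.5 UMIs per cell. Tnfsf8 was found in microglia at 5.76 to 7.83 CPM in all 4 libraries. In T or NK cells it had 5 to 20 UMIs, or 26.9 to 77.7 CPM. The LPS over NaCl ratio in T or NK cells was 2.89 (1.05 to 9.85) in APOE3. In APOE4 they had 27.0 CPM with LPS and 29.1 CPM with NaCl. Inhbb was found in ependymal cells, at 15.7 CPM in APOE4 LPS and 16.4 CPM in APOE4 NaCl, and at 30.1 CPM in APOE3 LPS and 32.8 CPM in APOE3 NaCl. It was also found in astrocytes, at 9.26 CPM in APOE4 LPS and 12.6 CPM in APOE4 NaCl, and at 8.84 CPM in APOE3 LPS and 15.3 CPM in APOE3 NaCl. Sele had no other named class with 10 UMIs in any library, and for Selp neutrophils of APOE3 LPS, with 12 UMIs, were the single such case. At 25.6 CPM (13.2 to 44.7), with a UMI in 9 of 99 cells, these neutrophils were above the 4.29 CPM of the endothelial cells in that library.

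**Figure D4:**
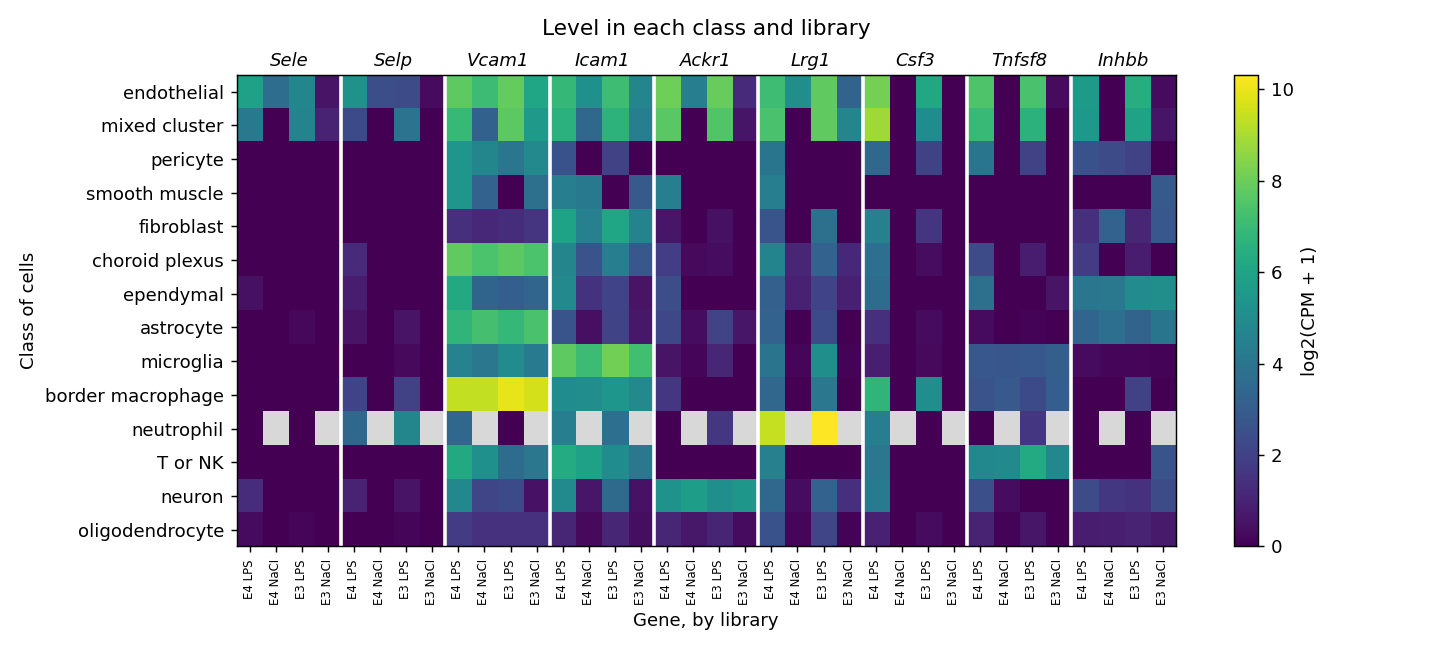
Level of each gene, as log2(CPM + 1), in 14 classes of cells (rows) and 4 libraries (columns within each gene, LPS left of NaCl). Grey marks classes of fewer than 10 cells in a library, and the mixed cluster is the unnamed cluster with endothelial and pericyte markers. Sele is nearly limited to the top rows, Selp appears in them and in neutrophils, and Vcam1 extends to border macrophages (667 to 992 CPM with LPS), choroid plexus and astrocytes, and Icam1 to microglia.

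Genes of the surrounding pathway, in 7 lists with 80 genes, were read in the endothelial class by the same call. These lists too were chosen with earlier results of these data known. The shares called higher over all genes were 20.1% in APOE4 and 7.68% in APOE3. Among cytokines and chemokines, which include ligands that Ackr1 binds, 8 of 9 measured were called higher with LPS in APOE4 and 7 of 7 in APOE3. Ccl5, a chemokine for T cells and monocytes, had 3695 UMIs in APOE4 LPS against 1 in APOE4 NaCl, and 102 in APOE3 LPS against 9 in APOE3 NaCl. In a coarser clustering Ccl5 was a leading gene of an unnamed cluster led by Marco, of 1685 cells with 1483 from APOE4 LPS. It also led in an unnamed low-UMI cluster (3819 of 3849 cells from APOE4 LPS) and the erythroid cluster (1108 of 1139). Cxcl2, a neutrophil attractant, had 428 UMIs in APOE4 LPS against 3 in APOE4 NaCl, a CPM ratio of 90.6 (30.8 to 441). In APOE3 LPS Cxcl1 had 342 UMIs against 18 in APOE3 NaCl, a ratio of 14.1 (8.77 to 24.0). The integrin gene Itgam, a partner of Icam1 on myeloid cells, had 654 UMIs in APOE4 LPS against 32 in APOE4 NaCl, a ratio of 12.97, in the class whose microglial marker sum was 3019 CPM in APOE4 LPS and 553 CPM in APOE4 NaCl. Of the leukocyte partners, 4 of 7 were called higher in APOE4 and 3 of 7 in APOE3, where Itga4, a partner of Vcam1, was called lower with 49 UMIs against 125, a ratio of 0.290. Of NF-kB and STAT3 targets and feedback genes, 5 of 9 were called higher in APOE4 and 7 of 9 in APOE3. Socs3, the brake on STAT3 signalling, had 609 UMIs in APOE4 LPS against 66 in APOE4 NaCl, a ratio of 5.86. Birc3, an NF-kB target that restrains cell death, had 700 UMIs in APOE3 LPS against 118 in APOE3 NaCl, a ratio of 4.395.

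Of receptors for LPS and cytokines, 4 of 12 were called higher in APOE4 and 5 of 12 in APOE3, Cd14 and Tlr4 of the LPS receptor among them. The ratio of Cd14, which microglia also express, was 22.8 (14.3 to 38.7) in APOE4 and 5.56 (3.55 to 9.11) in APOE3. Of the partners of Csf3, Tnfsf8, Inhbb and Lrg1, 2 of 8 were called higher in APOE4, and 1 of 10 was called higher and 1 lower in APOE3, shares near those over all genes. Csf3r, the Csf3 receptor, had 71 UMIs in APOE4 LPS against 19 in APOE4 NaCl, a ratio of 2.37. Eng, the Lrg1 co-receptor of endothelial cells, had 3850 UMIs in APOE3 LPS against 2512 in APOE3 NaCl, a ratio of 1.14. Of haemostasis and vessel tone genes, 6 of 10 were called higher in APOE4 and 4 of 10 in APOE3. Ptgs2, the inducible prostaglandin synthase, had 797 UMIs in APOE3 LPS against 41 in APOE3 NaCl, a ratio of 14.4. F3, the starter of coagulation and also an astrocyte gene, had 400 in APOE4 LPS against 7 in APOE4 NaCl, a ratio of 36.3, where the 9 astrocyte markers summed to 2083 and 351 CPM. The part of RNA from microglia, astrocytes or other classes in these list counts, that of Ccl5 included, was not tested.

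Of 12 remaining adhesion and junction molecules measured, 1 was called higher with LPS in APOE4 and 2 in APOE3, Mcam in both and Vwf in APOE3. Vwf, which shares its storage granules with P-selectin, had 1217 UMIs in APOE4 LPS against 710 in APOE4 NaCl, a ratio of 1.09, and 3837 in APOE3 LPS against 1032 in APOE3 NaCl, a ratio of 2.75. List medians of the log2 LPS over NaCl ratio in APOE4 ranged from -0.47 for the partner genes to 3.59 for cytokines, and in APOE3 from -0.01 to 2.58 for the same lists, beside -0.01 and -0.09 over all genes. Between genotypes with LPS the highest list median was again that of cytokines, at 2.60, and the lowest that of adhesion and junction molecules, at -0.70.

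Between genotypes with LPS, 8 of 9 cytokines and 4 of 7 leukocyte partners were called higher in APOE4 LPS, against 0 of 12 other adhesion molecules, 1 of 12 receptors, 1 of 9 NF-kB and STAT3 genes, 2 of 10 haemostasis genes and 2 of 9 partner genes, where 18% of all genes measured were called higher. The counts of the last 2 lists are near that share. The class read here held 3019 CPM of microglial markers in APOE4 LPS and 494 CPM in APOE3 LPS. No list count without the low-UMI cluster is given, and the part of other classes in these counts was not tested. Without LPS, 0 to 2 genes per list were called higher in APOE4 NaCl, where 2.12% of all genes were. Angpt2, a destabilizer of vessels, had 11 UMIs in APOE4 NaCl against 227 in APOE3 NaCl, a ratio of 0.0865, and Ptgs2 had 105 against 41, a ratio of 4.57.

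Across 53 sums of a class in a library, from 16 classes, the genes most like each member were found by Pearson correlation of log2(CPM + 1). These values describe shared libraries and classes and carry no test. Sele was most like Sema3g (r = 0.84), Selp like Lrg1 (0.78), and Lrg1 like Lcn2 (0.79). Icam1 was most like the microglial gene Tmem119 (0.88), Vcam1 like Dab2 (0.72), and Ackr1 like the neuronal gene Htr2a (0.85). Csf3 was most like Rnase2a (0.79), Tnfsf8 like 4930486L24Rik (0.80) and Inhbb like Cpe (0.72). For Icam1 and Ackr1 the closest gene thus belonged to another class that also carries the member. Slfn4, another gene among those most like Selp (0.74), was a leading gene of a neutrophil cluster. Neutrophils of APOE3 LPS held both Selp and Lrg1 above the endothelial level, so the likeness of Selp and Lrg1 is not endothelial alone.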

How the data were processed

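Single-cell RNA was measured with 10x 3' v3.1 chemistry in 4 libraries, 1 per group. The deposited values are raw UMI counts per gene and barcode, which the authors obtained from Cell Ranger (7.0.1, per the file headers) on mm10 (per the submitters' processing notes). No count is normalized. A barcode needed 500 genes, 1000 UMIs and no more than 20% of UMIs from mitochondrial genes, and the barcodes with the highest Scrublet scores were removed at 0.8% per 1000 barcodes, since its own threshold called none in APOE4 LPS. Cells were clustered with scanpy 1.11.5 (2000 variable genes without the 9 members, 30 components, Leiden resolution 2, no integration). A cluster took a class name from at least 3 of that class's markers at 2-fold or more and in 25% of cells, and from at least 33.3% of its list. UMIs were summed per class and library and given as CPM. Exact Poisson and Clopper-Pearson intervals and conditional binomial intervals of ratios (scipy 1.17.1) cover counting error only. The scripts were tested on simulated data. The members and lists were chosen with earlier results of these data known. From each pathway list and comparison, the rule names the 2 largest and the 1 smallest CPM ratio among genes with at least 50 UMIs, and for each member the genes most like it. Those printed are a selection of these, made after their values were seen. Of 16 alternatives, those that leave out the low-UMI cluster or the richest barcode, or add the cluster with pericyte markers, were chosen after seeing the data.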

Additional observations from a re-analysis of the deposited data

How the results depend on the processing

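With 1 library per group no result has a replicate check. No paired analysis was possible because each group is 1 library and no test was made. Over the alternatives, 259 of 384 member ratios lay within the reported counting interval and 125 outside it, and no called ratio changed its side of 1. The count of members called higher in APOE4 NaCl over APOE3 NaCl, 5 as reported, was 3 with the cluster of endothelial and pericyte markers added, 2 with at least 50 UMIs per gene, and 1 with each cell thinned to 1000 UMIs. In APOE4 LPS over APOE3 LPS the count, 3 as reported, was 1 as UMIs per cell. The Icam1 difference of the log2 LPS ratio, APOE4 minus APOE3, was 0.13 when thinned, against -0.75 as reported. The cause of these shifts was not tested. Shallow cells in APOE4 LPS, a median of 1814.5 UMIs in the endothelial class, limit the detection of rare members there.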
